A study of Danio rerio with 2 samples.

Results

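The Hox genes of paralog groups 1 to 12 were described in tailbud cells of *stag2b-/-* and wild-type zebrafish embryos. Members were taken by name, as every gene symbol of the deposited gene list that joins hox, a cluster letter a to d, a group number of 1 to 12 and a copy letter a or b. This gave 42 of the 27771 listed genes; 6 genes of group 13 were left apart. The data were 1 single-cell RNA-seq library from *stag2b-/-* tailbuds, labelled stag2b NZ207, and 1 from wild-type tailbuds, labelled AB, both at 16 hpf. Each library was made from a pool of dissected and dissociated tailbuds, so embryos could not be told apart. The methods of the study describe the mutants as homozygous, and name WIK as the wild-type strain where the labels name AB. Stag2b is a subunit of cohesin, the ring complex that holds sister chromatids together and shapes chromatin loops. The allele is a germline one and not restricted to a tissue.

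Hox genes encode homeodomain transcription factors and lie side by side in clusters. Their order along a cluster matches the order in which they are switched on and the position of their expression along the body axis, low group numbers anterior and high numbers posterior. Zebrafish keep several duplicated clusters, named by a cluster letter and a copy letter (*hoxca* holds *hoxc12a*, *hoxcb* holds *hoxc12b*), so many genes have a second copy. In the tailbud, neuromesodermal progenitors (NMPs) supply both the posterior neural tube and the paraxial mesoderm. Paraxial cells pass through presomitic mesoderm (PSM) before they form somites. Genes of the highest groups are known for their expression at the posterior end of the axis and, in mouse, for slowing its extension.

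The *stag2b-/-* library held 26360 cell barcodes and 393322847 unique molecular identifiers (UMIs), and the wild-type library 18704 barcodes and 303216340 UMIs. After filtering and doublet removal, 23325 *stag2b-/-* and 17507 wild-type cells were kept, with medians of 13246 and 15325 UMIs per cell. Scrublet called 9.20% of *stag2b-/-* and 3.20% of wild-type cells doublets, and 125 barcode sequences occurred in both libraries. The *stag2b* transcript stood at 59.6 CPM, its counts divided by all UMIs and scaled to 1000000 UMIs, in *stag2b-/-* cells, against 108 CPM in wild-type cells (log2 ratio -0.85), and it was lower in all 17 classes below. Cells were assigned to 17 classes from raw UMIs of marker genes, with 69 to 3347 *stag2b-/-* cells and 54 to 1978 wild-type cells per class. A class is called "-like" because it rests on a few markers only, such as *tbxta* and *sox2* for NMP-like cells or *meox1* and *tcf15* for somite-like cells. In all, 8712 *stag2b-/-* and 6526 wild-type cells met no gate.

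For each gene, UMIs of all cells in a class were added up per library and divided by the class total to give CPM. Ratios are log2 values of *stag2b-/-* over wild-type CPM with 95% intervals for counting error only. With 1 library per genotype there was no replicate check, and a ratio compares these libraries, not the genotypes at large. A gene was compared where it had at least 200 UMIs over both libraries in all kept cells, or at least 50 within a class, and was called higher or lower from 1.5-fold. Counts of called members are set beside the share of all compared genes called in the same direction.

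In all kept cells, 40 of the 42 members were compared. Of these, 0 were called higher and 2 lower in *stag2b-/-* cells, *hoxc12a* and *hoxc12b*. Among all 17781 genes compared, 18.2% were called higher and 9.99% lower. The median log2 ratio was -0.03 over the members and 0.15 over all genes. When the libraries were scaled with TMM factors, which trim extreme genes, or centred on the median gene, 0 members were higher and 4 lower, with *hoxa2b* and *hoxc11b* added. The share of all genes called lower was then 13.2% under TMM and 13.3% when centred. Summed over the 42 members, Hox transcripts made up 4322 CPM in *stag2b-/-* cells and 4469 CPM in wild-type cells, a log2 ratio of -0.05. The remaining members, *hoxa1a* with 41 UMIs and *hoxb1a* with 76 UMIs over both libraries, were under the minimum. Class shares differed between the libraries. Somite-like cells were 4.12% of kept *stag2b-/-* and 2.16% of kept wild-type cells. Posterior PSM-like cells were 14.3% and 11.2%, and notochord progenitor-like cells 1.91% and 3.23%, in the same order. Ratios over all kept cells, of single members and of sums, also carry such differences, whose part was not tested.

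**Figure D1:**
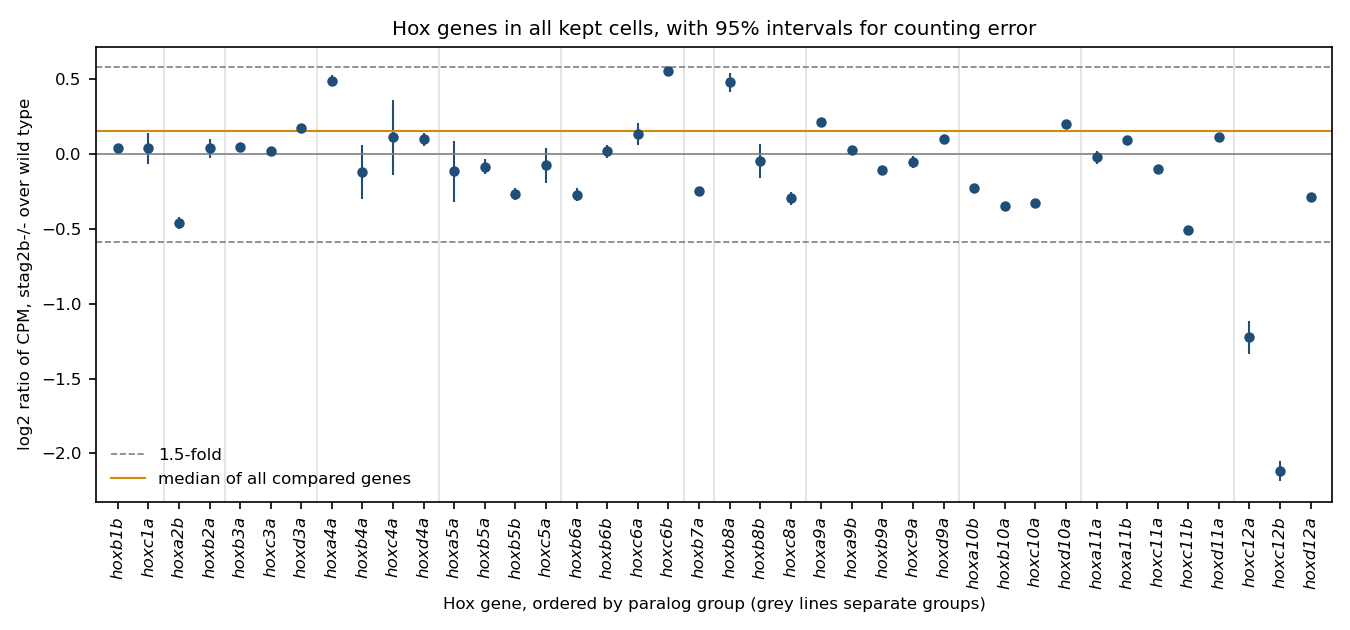
Log2 ratio of CPM, *stag2b-/-* over wild type, for the 40 compared Hox genes in all kept cells, ordered by paralog group. Points are ratios, bars 95% intervals for counting error, dashed lines 1.5-fold and the orange line the median of all compared genes at 0.15. *hoxc12a* at -1.22 and *hoxc12b* at -2.12 lie below the lower dashed line, and *hoxc6b* at 0.56 lies just under the upper one.

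Anterior groups were represented mainly by a few genes each. *hoxb1b*, the group 1 gene with most UMIs and a retinoic acid responsive gene of the early hindbrain, had 82.4 CPM in *stag2b-/-* cells and 79.9 CPM in wild-type cells. *hoxa2b*, a patterning gene of the hindbrain and second pharyngeal arch, had 32.2 CPM in *stag2b-/-* cells and 44.2 CPM in wild-type cells (log2 ratio -0.46, interval -0.50 to -0.42). *hoxc3a* had the most UMIs of group 3, at 972 CPM in *stag2b-/-* cells and 956 CPM in wild-type cells. In group 4, *hoxa4a* had 48.3 CPM in *stag2b-/-* cells and 34.3 CPM in wild-type cells (log2 ratio 0.49, interval 0.45 to 0.53). A second table of gene names pairs its identifier with HOXA3, so its group number is uncertain.

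The middle groups moved both ways within the 1.5-fold limits. *hoxb5b*, the group 5 gene with most UMIs, had 27.9 CPM in *stag2b-/-* cells and 33.6 CPM in wild-type cells. *hoxc6b*, which shares the *hoxcb* cluster with *hoxc11b* and *hoxc12b*, had 185 CPM in *stag2b-/-* cells and 126 CPM in wild-type cells (log2 ratio 0.56, interval 0.54 to 0.58). The single group 7 gene, *hoxb7a*, had 352 CPM in *stag2b-/-* cells and 418 CPM in wild-type cells. In group 8, *hoxc8a* had 27.2 CPM in *stag2b-/-* cells and 33.3 CPM in wild-type cells, whereas *hoxb8a* had 18.05 and 12.9 CPM, a log2 ratio of 0.48 (interval 0.42 to 0.54).

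Posterior genes other than the *hoxc12* pair also stayed within the limits. *hoxb9a*, the group 9 gene with most UMIs, had 199 CPM in *stag2b-/-* cells and 215 CPM in wild-type cells. *hoxd10a* had 185 CPM in *stag2b-/-* cells and 161 CPM in wild-type cells, whereas *hoxb10a* and *hoxc10a* had log2 ratios of -0.35 and -0.33. In group 11, *hoxa11b* had 146 CPM in *stag2b-/-* cells and 137 CPM in wild-type cells. Its group member *hoxc11b* had 85.4 CPM in *stag2b-/-* cells and 121 CPM in wild-type cells (log2 ratio -0.50, interval -0.53 to -0.48). *hoxd12a* carried most group 12 transcripts, with 306 CPM in *stag2b-/-* cells and 374 CPM in wild-type cells (log2 ratio -0.29).

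Summed by paralog group, log2 ratios lay between -0.38 for group 12 and 0.36 for group 6. Summed by cluster they lay between -0.14 for *hoxba* and 0.23 for *hoxaa*. Summed over its 3 members, the *hoxcb* cluster had 278 CPM in each library, with a ratio of 0.00. The members did not move together: *hoxc6b* was above 0, and *hoxc11b* and *hoxc12b* below it. *hoxc13b*, of the group left apart, is not in this sum.

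Levels of neighbouring Hox genes depend on how reads were assigned. RefSeq gene models were read on GRCz12tu, whereas the counts were made on GRCz11. There, all 42 members were found by symbol and 15 of them overlap another member. The *hoxc3a* model spans *hoxc9a*, *hoxc8a*, *hoxc6a*, *hoxc5a* and *hoxc4a*, the *hoxb3a* model spans *hoxb6a*, *hoxb5a* and *hoxb4a*, and the *hoxb1b* model spans *hoxb6b* and *hoxb5b*. The *hoxd3a* model spans *hoxd4a*. Whether the annotation used for counting has the same overlaps was not tested, so counts of these genes, high or low, cannot be tied firmly to the named gene. *hoxc12a*, *hoxc12b*, *hoxc11b*, *hoxc6b*, *hoxa2b* and *hoxb8a* overlap no other member.

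Each member was next followed across the cell classes. In *stag2b-/-* cells, 11 of the 40 members had their highest CPM in NMP-like cells, 10 in intermediate mesoderm-like cells (*pax2a*, *pax8*, *lhx1a*, *osr1* or *hnf1ba*), 6 in ventral neural tube-like cells and 4 in lateral mesoderm-like cells (*hand2*). In wild-type cells the counts were 9 in NMP-like, 8 in intermediate mesoderm-like, 6 in ventral neural tube-like and 4 in lateral mesoderm-like cells. In the same order of classes, 7, 5, 2 and 4 members had that top class in both libraries. The top classes of all genes were not counted. Intermediate mesoderm-like cells also carried the PSM gene *msgn1*, which their gate did not bar, as given further below. No member peaked in anterior PSM-like, somite-like, erythroid-like, endothelial-like, basal epidermis-like or periderm-like cells in either library. The sum of the 42 members was 6374 CPM in NMP-like cells of the *stag2b-/-* library and 6742 CPM in those of the wild-type library. In somite-like cells it was 2004 and 2390 CPM in the same order of libraries.

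**Figure D2:**
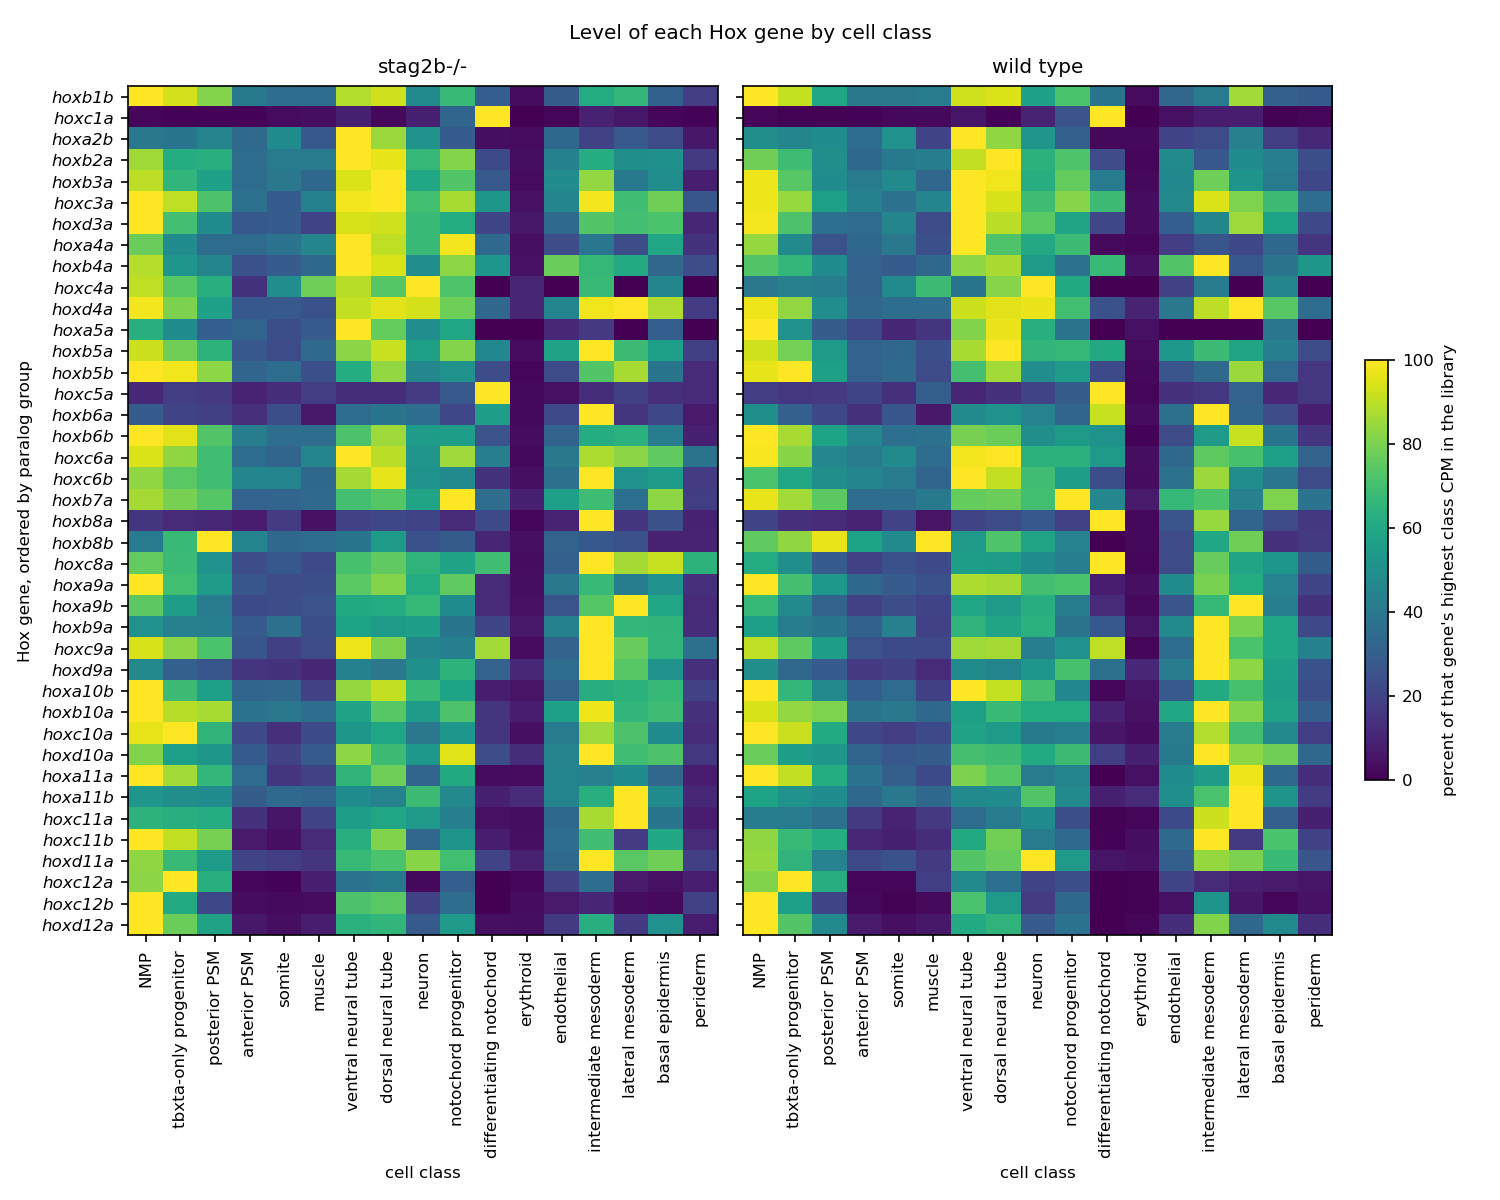
Level of the 40 compared Hox genes in 17 cell classes, *stag2b-/-* cells on the left and wild-type cells on the right, as a percent of each gene's highest class CPM in that library. Most rows are bright in NMP-like, neural tube-like and intermediate mesoderm-like cells and dark in erythroid-like cells; *hoxc1a* and *hoxc5a* are brightest in differentiating notochord-like cells.

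The 4 classes from NMP-like through posterior PSM-like (*msgn1* with *tbx6* or *tbx16*) and anterior PSM-like (mesp genes) to somite-like cells follow the paraxial lineage. *hoxd12a* had 644, 372, 41.4 and 24.4 CPM in these classes in *stag2b-/-* cells, and 804, 384, 56.7 and 34.5 CPM in wild-type cells. *hoxc11b* had 148, 118, 10.8 and 5.88 CPM in *stag2b-/-* cells, and 185, 138, 24.9 and 19.5 CPM in wild-type cells. Both genes were thus high in the posterior classes and dropped between posterior and anterior PSM-like cells. *hoxa11b* had 173, 160, 98.5 and 114 CPM in *stag2b-/-* cells, and 168, 142, 98.5 and 116 CPM in wild-type cells. It therefore kept most of its level in a step where its group members *hoxc11a* and *hoxc11b* lost most of theirs.

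**Figure D3:**
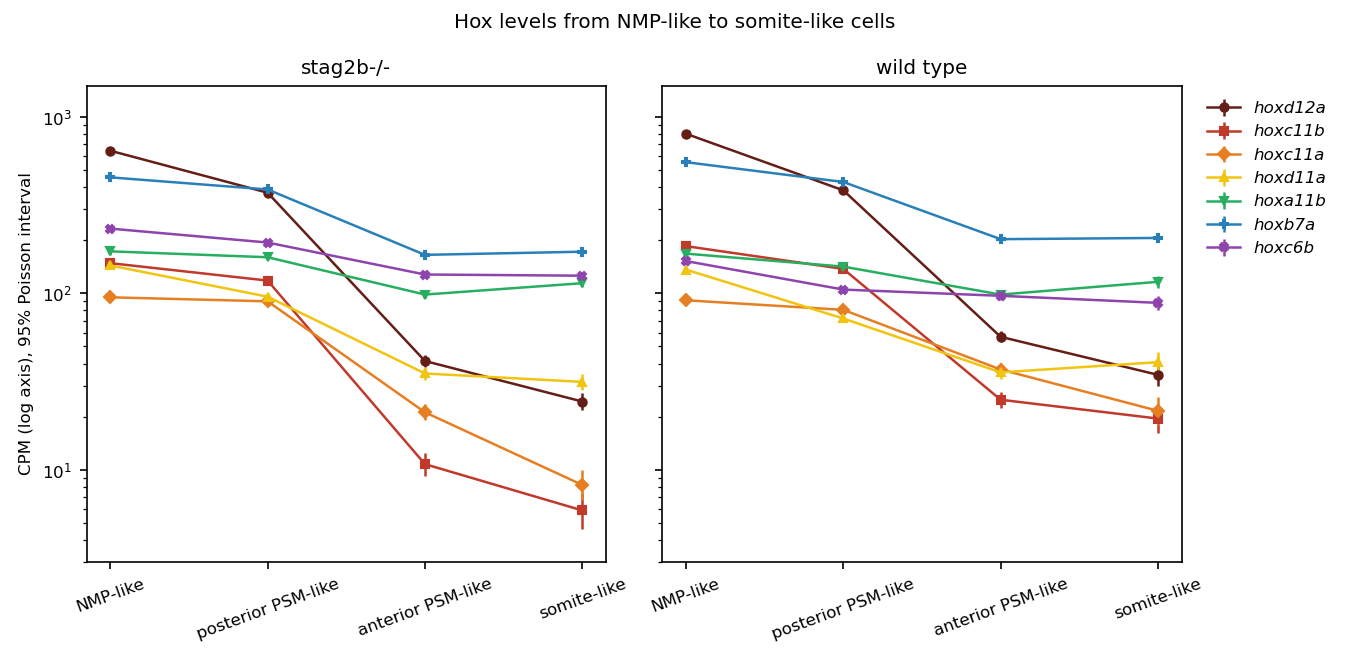
CPM of 7 Hox genes on a log axis in NMP-like, posterior PSM-like, anterior PSM-like and somite-like cells, *stag2b-/-* on the left and wild type on the right, with 95% Poisson intervals. *hoxd12a* and *hoxc11b* drop steeply after the posterior PSM-like class in both libraries, whereas *hoxa11b*, *hoxb7a* and *hoxc6b* drop less. In that step *hoxc11a* fell from 90.2 to 21.2 CPM in *stag2b-/-* cells and from 80.6 to 37.0 CPM in wild-type cells. Its wild-type drop was close in fold to that of *hoxb7a*, from 428 to 203 CPM.

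The size of the NMP-like to somite-like difference varied with group number. The log2 ratio of NMP-like over somite-like CPM had medians of 1.29 for groups 1 to 8, 1.70 for groups 9 and 10, and 4.10 for groups 11 and 12 in *stag2b-/-* cells. The corresponding medians were 1.06, 1.5 and 2.67 in wild-type cells. Over all genes the median was 0.24 in *stag2b-/-* cells and 0.29 in wild-type cells. The pooled median of groups 11 and 12 covers a wide spread. *hoxa11a*, *hoxa11b*, *hoxc11a*, *hoxc11b* and *hoxd11a* had 2.74, 0.60, 3.53, 4.66 and 2.19 in *stag2b-/-* cells. In wild-type cells they had 1.72, 0.53, 2.08, 3.25 and 1.74. *hoxc10a* of group 10 had 2.86 in *stag2b-/-* cells and 2.46 in wild-type cells. Spearman's correlation between group number and this ratio was 0.61 in *stag2b-/-* cells and 0.64 in wild-type cells, over 37 genes in each. Both *hoxc12* copies passed the UMI minimum only through their NMP-like cells. Without them, a choice made after seeing the data, the median of groups 11 and 12 was 3.14 in *stag2b-/-* cells and 1.91 in wild-type cells over 6 genes, and the correlation was 0.54 in *stag2b-/-* cells and 0.58 in wild-type cells. The correlation is a description across genes, which share libraries and may share reads, and carries no test. The largest ratios in wild-type cells were those of *hoxc12b*, *hoxc12a* and *hoxd12a*. They were 5.41, 6.58 and 4.72 in *stag2b-/-* cells, against 7.08, 5.47 and 4.54 in wild-type cells. The somite-like counts behind them were 6 UMIs in *stag2b-/-* and 4 UMIs in wild-type cells for *hoxc12b*, and 1 and 2 UMIs for *hoxc12a*. The interval of *hoxc12a* was 4.06 to 11.9 in *stag2b-/-* cells and 3.59 to 8.53 in wild-type cells, and it held the ratio of *hoxd12a* in both libraries. The lowest in wild-type cells were those of *hoxc1a*, *hoxa2b* and *hoxb8a*, with -0.61, -0.26 and -0.22 in *stag2b-/-* cells, against -0.17, -0.04 and 0.02 in wild-type cells.

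**Figure D4:**
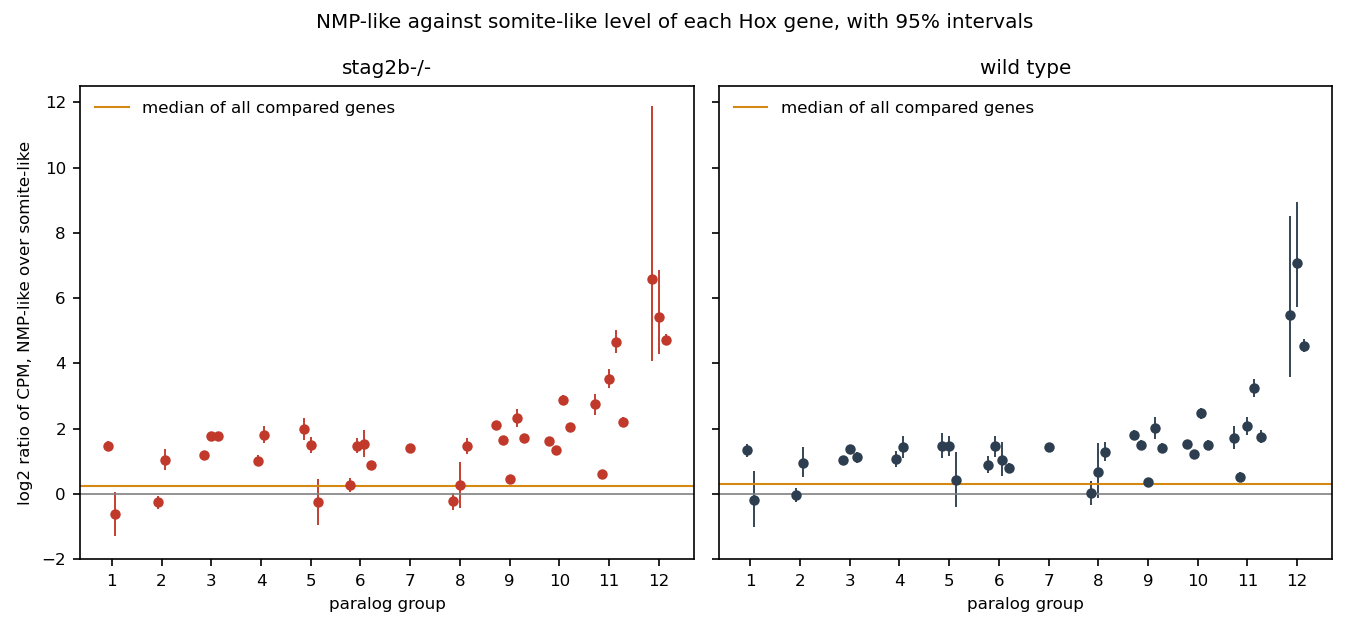
Log2 ratio of NMP-like over somite-like CPM for 37 Hox genes by paralog group, *stag2b-/-* on the left and wild type on the right, with 95% intervals and the median of all compared genes in orange. Groups 11 and 12 reach the highest values in both libraries, with medians of 4.10 in *stag2b-/-* cells and 2.67 in wild-type cells, or 3.14 and 1.91 without the *hoxc12* copies, but *hoxa11b* of group 11 is among the low points.

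The group 12 genes were also lower in neural tube-like than in NMP-like cells, but by less than in somite-like cells. Over ventral and dorsal neural tube-like cells together, *hoxd12a* had 421 CPM in *stag2b-/-* cells and 516 CPM in wild-type cells, log2 ratios to NMP-like cells of -0.61 in *stag2b-/-* cells and -0.64 in wild-type cells. For *hoxc12b* these ratios were -0.44 in *stag2b-/-* cells and -0.78 in wild-type cells, and for *hoxc12a* -1.05 in each, all with intervals below 0. *hoxa2b* went the other way, with 1.13 in *stag2b-/-* cells and 0.83 in wild-type cells. Over the members, 21 of 40 in *stag2b-/-* cells and 20 of 39 in wild-type cells had an interval below 0, and 8 and 4 an interval above 0. The median ratio was -0.13 over the members and 0.004 over all genes in *stag2b-/-* cells, and -0.10 and -0.02 in wild-type cells. The share of all genes with such intervals was not counted, so these counts are not set apart from other genes. The log2 ratio of neural tube-like over somite-like CPM was 4.11 for *hoxd12a* in *stag2b-/-* cells and 3.90 in wild-type cells. It was 4.98 in *stag2b-/-* cells and 6.30 in wild-type cells for *hoxc12b*, and 5.53 and 4.42 for *hoxc12a* (interval 3.02 to 10.8 in *stag2b-/-* and 2.54 to 7.48 in wild-type cells), over the same few somite-like UMIs. The lowest in wild-type cells were those of *hoxc5a*, *hoxc1a* and *hoxb8a*, with 0.02, 0.11 and 0.24 in *stag2b-/-* cells, against -0.02, -0.01 and 0.14 in wild-type cells. Neuron-like cells (*elavl3* with a second neuronal gene) held the highest wild-type *hoxd11a* level, 142 CPM in *stag2b-/-* cells and 162 CPM in wild-type cells.

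Other mesodermal classes, each named by a few markers only, had patterns of their own. Intermediate mesoderm-like cells had 473 CPM of *hoxd9a* in *stag2b-/-* cells and 387 CPM in wild-type cells, and 444 and 475 CPM of *hoxb9a* in the same order of libraries. Lateral mesoderm-like cells were the top class of *hoxa11b*, with 333 CPM in *stag2b-/-* cells and 291 CPM in wild-type cells. They separated the *hoxc11* copies: *hoxc11a* had 147 CPM in *stag2b-/-* and 218 CPM in wild-type cells, whereas *hoxc11b* had 26.2 CPM in *stag2b-/-* and 38.0 CPM in wild-type cells. Endothelial-like cells had *hoxd12a* at 109 CPM in *stag2b-/-* and 107 CPM in wild-type cells.

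Differentiating notochord-like cells (*tbxta* with notochord matrix genes or *shha*, no *noto* UMI) differed from the other classes in which genes they carried. *hoxc1a* had 139 CPM in *stag2b-/-* cells and 157 CPM in wild-type cells of this class, and at most 45.3 CPM in *stag2b-/-* and 39.98 CPM in wild-type cells of any other class. *hoxc5a* was also highest there, at 24.5 CPM in *stag2b-/-* and 23.0 CPM in wild-type cells. Against notochord progenitor-like cells (*noto* with *tbxta*), the members had a median log2 ratio of -1.503 in *stag2b-/-* cells and -1.30 in wild-type cells, over 34 and 33 members. Over all genes the median was -0.23 in *stag2b-/-* cells and -0.20 in wild-type cells. The UMI minimum applied to both classes together, so a member could pass it through its progenitor-like UMIs, which can lower the member median. How far it did so was not tested. Several posterior genes had few UMIs in the differentiating class: *hoxc11b* had 14 UMIs in *stag2b-/-* cells and 2 UMIs in wild-type cells, and *hoxc12b* 0 UMIs in each. The differentiating class held only 69 *stag2b-/-* and 54 wild-type cells.

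Basal epidermis-like cells (*tp63*) carried posterior genes unevenly. *hoxd12a* had 326 CPM in *stag2b-/-* cells and 382 CPM in wild-type cells there, and *hoxc11b* 88.7 and 159 CPM. *hoxc12b* had only 0.53 CPM in *stag2b-/-* cells and 1.57 CPM in wild-type cells. Erythroid-like cells (*gata1a* with globin genes) were low for nearly all members. Their CPM was a median of 7.39% of the all-cell level in *stag2b-/-* cells and 5.78% in wild-type cells over the 40 members.

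*hoxc12b* (ENSDARG00000103133) was the member that differed most between the libraries. It had 7.19 CPM in *stag2b-/-* cells and 31.2 CPM in wild-type cells over all kept cells, from 2246 and 8327 UMIs (log2 ratio -2.12, interval -2.18 to -2.05). It was called lower in 8 of the 8 classes where it was compared. The UMI minimum was set on both libraries together, so a class could pass it through its wild-type UMIs alone. The tally therefore adds no support of its own. In NMP-like cells, its top class, it had 19.8 CPM in *stag2b-/-* cells and 93.2 CPM in wild-type cells (log2 ratio -2.24, interval -2.45 to -2.03). In posterior PSM-like cells it had 4.33 CPM in *stag2b-/-* cells and 19.4 CPM in wild-type cells (log2 ratio -2.17). Cells of other lineages showed it too. In dorsal neural tube-like cells it had 14.7 CPM in *stag2b-/-* cells and 50.03 CPM in wild-type cells (log2 ratio -1.77). In notochord progenitor-like cells it had 7.04 CPM in *stag2b-/-* cells and 31.0 CPM in wild-type cells (log2 ratio -2.14). Among the compared classes, the lower level was found in mesodermal, neural and notochord ones. In intermediate mesoderm-like cells there were 4 UMIs in *stag2b-/-* cells against 65 UMIs in wild-type cells (log2 ratio -4.50, interval -6.41 to -3.07). That class passed the minimum only through its wild-type UMIs.

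The share of cells with a *hoxc12b* UMI differed in the same direction when counted at matched depth. The class gates were applied before thinning, so the cells themselves were chosen at unequal depth. In NMP-like cells thinned to 5000 UMIs each, 11.02% of *stag2b-/-* cells (exact 95% interval 8.81 to 13.6) and 33.1% of wild-type cells (29.3 to 37.1) had a UMI, with 9 shallower cells left out in each library. Without thinning the shares were 22.5% and 59.1% in the same order. In erythroid-like cells, which served as the background, the thinned shares were 0.275% in *stag2b-/-* cells and 0% in wild-type cells, with an exact 95% upper bound of 1.03%, after leaving out 34 and 39 shallower cells. This background was not equal in the libraries. Its *hoxc12b* CPM was 8.90% of the all-cell level in *stag2b-/-* cells and 1.35% in wild-type cells. It also carried PSM genes unequally, as given further below. Median depths were 15989 UMIs in *stag2b-/-* and 18551 UMIs in wild-type NMP-like cells, and 15984.5 and 19107 UMIs in erythroid-like cells.

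*hoxc12a* (ENSDARG00000070352), the copy in the *hoxca* cluster, was lower in 5 of the 5 classes compared, under the same minimum over both libraries together. Over all kept cells it had 3.27 CPM in *stag2b-/-* cells and 7.63 CPM in wild-type cells, from 1020 and 2039 UMIs (log2 ratio -1.22, interval -1.33 to -1.12). Its top class was that of *tbxta*-positive cells without *sox2* or *noto* UMIs, with 8.94 CPM in *stag2b-/-* cells and 18.8 CPM in wild-type cells (log2 ratio -1.08). In NMP-like cells it had 7.38 CPM in *stag2b-/-* cells and 15.3 CPM in wild-type cells (log2 ratio -1.05, interval -1.44 to -0.67). The group member in the *hoxda* cluster, *hoxd12a*, had a log2 ratio of -0.32 in NMP-like cells (interval -0.36 to -0.28), outside the intervals of both *hoxc12* copies.

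**Figure D5:**
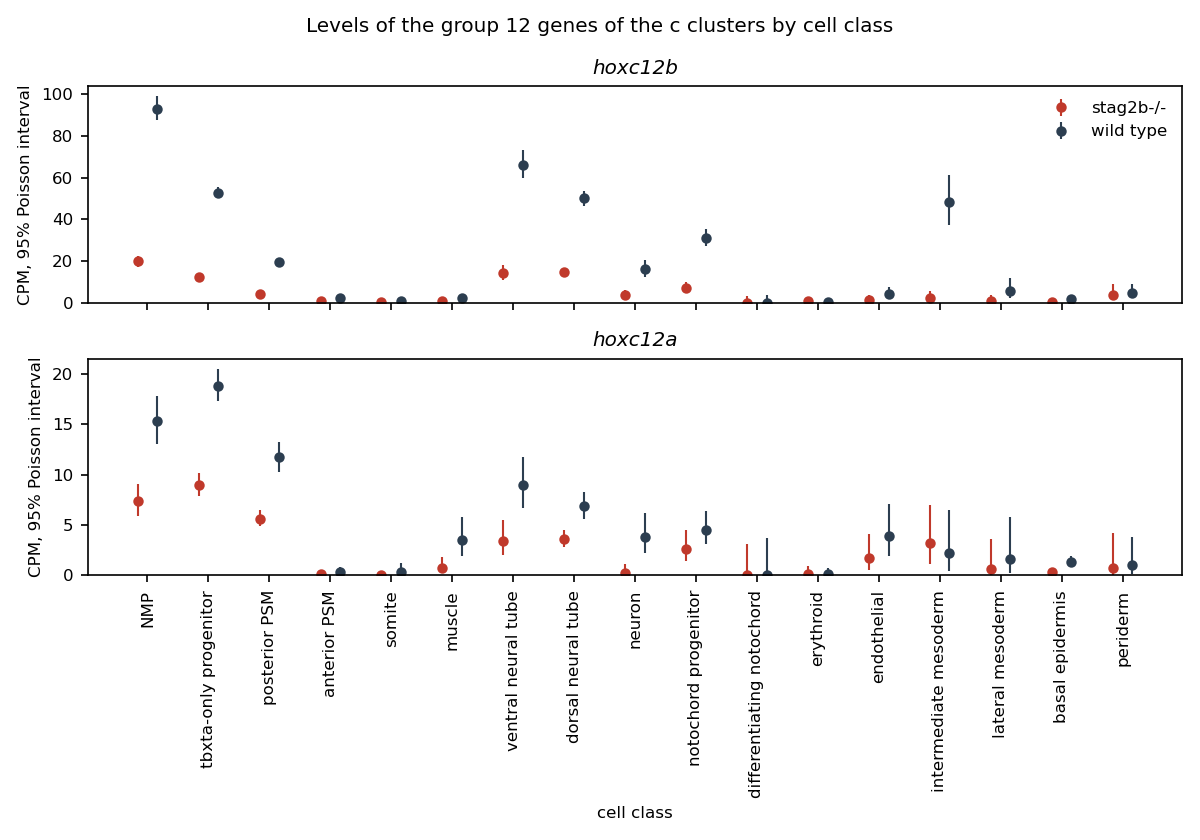
CPM of *hoxc12b* (top) and *hoxc12a* (bottom) in 17 cell classes, *stag2b-/-* in red on the left of each pair and wild type in dark blue, with 95% Poisson intervals. *hoxc12b* is highest in NMP-like cells, at 19.8 CPM in *stag2b-/-* cells and 93.2 CPM in wild-type cells, and *hoxc12a* in *tbxta*-only progenitor-like cells, at 8.94 CPM in *stag2b-/-* cells and 18.8 CPM in wild-type cells.

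In NMP-like cells, 39 members were compared, of which 1 was called higher and 6 lower in *stag2b-/-* cells. Of all 11730 genes compared there, 15.6% were higher and 8.76% lower, and the median log2 ratio was -0.06 over the members and 0.13 over all genes. Besides the *hoxc12* pair, *hoxa2b* had 28.2 CPM in *stag2b-/-* cells and 47.3 CPM in wild-type cells (log2 ratio -0.75, interval -0.95 to -0.55). *hoxb6a* had 33.4 CPM in *stag2b-/-* cells and 51.7 CPM in wild-type cells (log2 ratio -0.63, interval -0.82 to -0.45), but fell short of 1.5-fold with a gate of 1 UMI (-0.50). The calls of *hoxa5a* and *hoxc5a* rested on 60 and 78 UMIs over both libraries, and their intervals reached above 0. The higher member was *hoxc6b*, with 233 CPM in *stag2b-/-* cells and 153 CPM in wild-type cells (log2 ratio 0.61, interval 0.52 to 0.70). Its ratio fell short of 1.5-fold under TMM (0.47), when centred on the median gene (0.48), and with gates of 1 UMI (0.57) or 4 UMIs (0.52).

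In posterior PSM-like cells, 40 members were compared, of which 4 were higher and 2 lower in *stag2b-/-* cells, against 30.1% and 6.47% of all 13532 genes compared. The higher members were *hoxc6b* (log2 ratio 0.89), *hoxa4a* (0.70), *hoxc6a* (0.68) and *hoxb8a* (0.66), and the lower ones the *hoxc12* pair. The median log2 ratio was 0.20 over the members and 0.30 over all genes in this class. Centred on that median, 0 members were higher and 4 lower, against 16% and 13.1% of all genes. A level of 194 CPM in *stag2b-/-* cells against 105 CPM in wild-type cells made *hoxc6b* the highest of the 40 ratios.

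In somite-like cells, 35 members were compared, of which 0 were higher and 6 lower in *stag2b-/-* cells, against 20.2% and 8.29% of all genes. The lower calls were 10 under TMM and 11 when centred, against 10.6% and 11.9% of all genes, but 2 at 2-fold or at 5 times the UMI minimum. *hoxc11b* had 5.88 CPM in *stag2b-/-* cells and 19.5 CPM in wild-type cells, from 76 and 113 UMIs (log2 ratio -1.73, interval -2.17 to -1.30). *hoxc11a* had 8.20 CPM in *stag2b-/-* cells and 21.6 CPM in wild-type cells, from 106 and 125 UMIs (log2 ratio -1.40, interval -1.78 to -1.01). The others were *hoxa11a* (-0.93), *hoxc10a* (-0.78), *hoxb5a* (-0.61) and *hoxc8a* (-0.59). The *stag2b-/-* class held 960 cells and the wild-type class 378 cells. Markers of other cells moved with these values: *krt4*, a keratin of surface epithelium, had 136 CPM in *stag2b-/-* cells and 293 CPM in wild-type cells of this class, and *hbbe3*, an embryonic globin, 6.19 and 54.2 CPM. Their part in the lower Hox levels was not tested.

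The *hoxc11* copies showed the same order in anterior PSM-like cells, where 34 members were compared and 0 were higher and 3 lower, against 21% and 8% of all genes. *hoxc11b* had a log2 ratio of -1.21 there (interval -1.48 to -0.95), *hoxc11a* of -0.81 (-1.003 to -0.61) and *hoxc5a* of -1.07. In NMP-like and posterior PSM-like cells *hoxc11a* had log2 ratios of 0.06 and 0.16, and *hoxc11b* of -0.32 and -0.22. *hoxc11b* was lower in 7 of 16 classes compared, including intermediate mesoderm-like (-1.11), neuron-like (-0.90) and basal epidermis-like cells (-0.84), and its ratio was below 0 in 15 of the 16.

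*hoxc6b* (ENSDARG00000101954), from the same cluster as *hoxc11b*, went the other way. It was higher in 6 of 17 classes and its ratio was below 0 in 2 of them, neuron-like and differentiating notochord-like cells, with intervals that reached above 0. In basal epidermis-like cells it had 154 CPM in *stag2b-/-* cells and 83.1 CPM in wild-type cells (log2 ratio 0.89, interval 0.80 to 0.97). In that class 34 members were compared, of which 4 were higher and 1 lower, against 20.6% and 8.25% of all genes. The others were *hoxc1a* (1.49, from 51 and 20 UMIs), *hoxa4a* and *hoxb8a* (0.78), all higher, and *hoxc11b*.

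*hoxa4a* (ENSDARG00000103862) was higher in 6 of 14 classes and below 0 in 0 of them. Its largest compared log2 ratio was 1.14 in muscle-like cells (*myog* with *myod1*), with 40.4 CPM in *stag2b-/-* cells and 18.3 CPM in wild-type cells. In basal epidermis-like cells it had 52.3 CPM in *stag2b-/-* cells and 25.1 CPM in wild-type cells (log2 ratio 1.06). In NMP-like cells the libraries were close, with a log2 ratio of 0.11 (interval -0.04 to 0.26). *hoxa2b* (ENSDARG00000023031) was lower in 4 of 14 classes and its ratio was below 0 in 13, with its highest level in ventral neural tube-like cells, 70.2 CPM in *stag2b-/-* cells and 96.1 CPM in wild-type cells. *hoxb8a* (ENSDARG00000056027) was higher in 4 and lower in 2 of 15 classes. All classes come from the same pair of libraries and are not replicates. These tallies, and those of *hoxc11b* and *hoxc6b* above, therefore add no support of their own. The median log2 ratio over all genes was above 0 in each class, from 0.05 in lateral mesoderm-like to 0.30 in posterior PSM-like cells. Class tallies of all genes were not made.

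Further calls fell in the small or low classes. In intermediate mesoderm-like cells (133 *stag2b-/-* and 87 wild-type cells), 31 members were compared, of which 6 were higher and 5 lower, against 15.7% and 11% of all genes. *hoxb8a* had 124 CPM in *stag2b-/-* cells and 65.9 CPM in wild-type cells, and *hoxd12a* 403 and 653 CPM. The other higher members were *hoxd3a* (log2 ratio 0.86), *hoxa4a* (0.79), *hoxb5b* (0.77), *hoxc6b* (0.63) and *hoxb1b* (0.62), and the other lower ones *hoxc12b*, *hoxc11b*, *hoxa2b* (-0.68) and *hoxc11a* (-0.66). The PSM gene *msgn1* had 156 CPM in *stag2b-/-* cells and 45.2 CPM in wild-type cells of this class, and *pax8* had 1 and 7 UMIs. Their part in the Hox values was not tested. In lateral mesoderm-like cells 30 members were compared, of which 0 were higher and 5 lower, against 14.5% and 7.95% of all genes, with *hoxd12a* at 110 CPM in *stag2b-/-* cells and 267 CPM in wild-type cells. The other lower members there were *hoxa2b* (-1.09), *hoxb6a* (-0.94), *hoxa11a* (-0.92) and *hoxb10a* (-0.75). *krt4* had 247 CPM in *stag2b-/-* cells and 13.7 CPM in wild-type cells there, and its part was not tested either.

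In erythroid-like cells 20 members were compared, of which 6 were higher and 0 lower in *stag2b-/-* cells, against 16.9% and 8.15% of all genes. *hoxd12a* had 24.7 CPM in *stag2b-/-* cells and 10.2 CPM in wild-type cells, and the others were *hoxd3a*, *hoxd11a* (log2 ratio 1.105), *hoxd10a*, *hoxa9b* (0.78) and *hoxc6b* (0.65). The PSM genes *msgn1* (130 CPM in *stag2b-/-* cells, 39.7 CPM in wild-type cells) and *tbx16* (39.9 and 12.8 CPM) were higher as well in this class, which should lack them, and their part was not tested. In differentiating notochord-like cells 21 members were compared, of which 3 were higher and 2 lower, against 13.4% and 8.79% of all genes. Higher were *hoxd11a* (1.94), *hoxc10a* (1.01) and *hoxa9a* (0.92), and lower *hoxb8a* (-1.49) and *hoxc8a* (-1.25). *hoxd12a* and *hoxa4a* had 32 and 36 UMIs in *stag2b-/-* cells against 2 UMIs each in wild-type cells, and *meox1* had 23 UMIs in *stag2b-/-* cells and 3 UMIs in wild-type cells. In periderm-like cells 21 members were compared, of which 0 were higher and 12 lower, against 25.9% and 9.03% of all genes. The lower ones were *hoxb10a* (-1.52), *hoxc11b* (-1.26), *hoxb3a* (-1.23), *hoxb7a* (-1.17), *hoxd12a* (-1.04), *hoxb9a* and *hoxc10a* (-0.88 each), and *hoxd3a*, *hoxd10a*, *hoxc11a*, *hoxb1b* and *hoxd9a* between -0.84 and -0.60. The median depth of this class was 4434 UMIs in *stag2b-/-* cells and 2968 UMIs in wild-type cells, and its part was not tested.

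The other classes had few calls. In *tbxta*-only progenitor-like cells 40 members were compared, 1 higher and 3 lower, against 19.8% and 9.36% of all genes, namely *hoxc6b* (0.71), *hoxa2b* (-0.67) and the *hoxc12* pair. In muscle-like cells 33 were compared, 1 higher and 3 lower, against 19.2% and 7.51%, the lower ones being *hoxc8a* (-0.72), *hoxc5a* (-0.65) and *hoxc11b* (-0.65). In ventral neural tube-like cells 35 were compared, 1 higher and 2 lower, against 15.3% and 7.42%, and in dorsal neural tube-like cells 40, 1 higher and 2 lower, against 18% and 8.21%. Both times the *hoxc12* pair was lower, and the higher member was *hoxb8a* (0.60) in ventral and *hoxc1a* (0.82) in dorsal cells. In neuron-like cells 34 were compared, 0 higher and 3 lower, against 15% and 7.05%, *hoxb10a* (-0.61) beside *hoxc11b* and *hoxc12b*. In notochord progenitor-like cells 35 were compared, 2 higher and 1 lower, against 12.9% and 8.88%, *hoxa4a* (0.76) and *hoxd10a* higher and *hoxc12b* lower. In endothelial-like cells 31 were compared, 1 higher and 2 lower, against 12.6% and 8.08%, *hoxa4a* (0.61), *hoxb6a* (-0.60) and *hoxb8a* (-0.77). Among these, *hoxd10a* had 314 CPM in *stag2b-/-* cells and 194 CPM in wild-type cells of the notochord progenitor-like class (log2 ratio 0.70, interval 0.59 to 0.80).

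For 9 genes both copies were members. Across the 17 classes, Spearman's correlation between the copies was 0.84 for *hoxc12*, 0.80 for *hoxc11*, 0.85 for *hoxc6* and 0.79 for *hoxa9* in *stag2b-/-* cells, and 0.88, 0.74, 0.88 and 0.86 in wild-type cells. It was 0.82 in *stag2b-/-* and 0.81 in wild-type cells for *hoxb5*, 0.60 and 0.74 for *hoxa11*, 0.46 and 0.59 for *hoxb1*, whose *hoxb1a* had few UMIs, and 0.33 and 0.58 for *hoxb6*. For *hoxb8* it was -0.12 in *stag2b-/-* cells and -0.20 in wild-type cells. The points share libraries and class depths, so these values are descriptions without a test. *hoxb8a* was highest in intermediate mesoderm-like cells of the *stag2b-/-* library and in differentiating notochord-like cells of the wild-type library. *hoxb8b* peaked in posterior PSM-like cells of the *stag2b-/-* library (7.76 CPM) and in muscle-like cells of the wild-type library (6.199 CPM). Wild-type posterior PSM-like cells were close to that, at 5.998 CPM from 126 UMIs.

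Genes of the class that holds Hox cofactors were read beside the members. These TALE-class genes (*pbx*, *meis*, *pknox* and *tgif1*) include the Pbx and Meis factors, which bind DNA together with Hox proteins. Over all kept cells 14 of the list were compared, of which 5 were higher and 1 lower in *stag2b-/-* cells. Over all genes 18.2% were higher and 9.99% lower, which is also the background of the other lists over all kept cells. *meis1a* had 35.4 CPM in *stag2b-/-* cells and 22.7 CPM in wild-type cells (log2 ratio 0.64), and *meis2a* 6.001 and 3.05 CPM (0.98). *pbx4*, the gene of this list with most UMIs after *meis1b* and *tgif1*, had 125 CPM in *stag2b-/-* cells and 113 CPM in wild-type cells (0.15). The list median was 0.25, against 0.15 over all genes.

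Known regulators of Hox clusters (*cdx* genes, retinoic acid, Fgf, Wnt and Gdf11 components, Polycomb and trithorax genes and hindbrain factors) included 22 compared genes, of which 1 was higher (*hnf1ba*) and 1 lower (*egr2b*). In NMP-like cells 0 of 19 were higher and 0 lower, against 15.6% and 8.76% of all genes. *cdx4*, which activates posterior Hox genes, had 1636 CPM in *stag2b-/-* NMP-like cells and 1859 CPM in wild-type ones (log2 ratio -0.18). *gdf11*, a signal that promotes the posterior Hox programme, had 731 CPM in *stag2b-/-* and 531 CPM in wild-type NMP-like cells (0.46). *fgf8a* had 505 CPM in *stag2b-/-* and 685 CPM in wild-type NMP-like cells (-0.44).

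Of 6 genes that flank Hox clusters, 1 was higher (*skap1*) and 1 lower (*eve1*) over all kept cells. In NMP-like cells 4 of the 6 were higher, *evx1*, *evx2*, *lnpa* and *skap1*, with a list median of 0.67, against 15.6% and a median of 0.13 over all genes. In posterior PSM-like cells 2 of 5 compared were higher, against 30.1% of all genes, and in somite-like cells 0 of 4, against 20.2%. Of 5 genes tied to Hox timing (*gmnn*, *nr6a1* and *lin28* genes), 1 was higher and 0 lower over all kept cells, against 18.2% and 9.99% of all genes. It was *nr6a1a*, with 24.5 CPM in *stag2b-/-* cells and 13.4 CPM in wild-type cells. In NMP-like cells 0 of 4 compared were higher and 0 lower, with a list median of 0.07. The higher ones were 2 of 4 in posterior PSM-like and 1 of 4 in somite-like cells. The group 13 genes lie at the posterior end of the clusters that keep them. Of 5 compared over all kept cells, 0 were higher and 3 lower, with a median of -1.40. *hoxc13b* had 3.03 CPM in *stag2b-/-* cells and 12.9 CPM in wild-type cells (log2 ratio -2.10), close to the ratio of *hoxc12b*, and *hoxc13a* 3.18 and 8.40 CPM (-1.40).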

How the data were processed

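One library per genotype was analysed from the raw UMI counts that the authors deposited, made with Cell Ranger 7.1.0 on GRCz11 and a curated transcriptome, intronic reads included. Cells with at least 200 genes, at most the 98th percentile of genes and at most 15% mitochondrial UMIs were kept, and doublets were removed with Scrublet in Scanpy 1.11.5. Classes required at least 2 UMIs of each marker, or 3 for a sum of alternative markers. Only periderm-like cells needed 10, both for their summed markers and for *krt4*. Intermediate mesoderm-like cells also needed a UMI of at least 2 of their markers. A few chosen markers of other classes were held to no more than 1 UMI, or to no UMI for some. Other markers were not barred, so a class can hold cells that carry them. Cells passing several gates, and 1 of 18 classes with under 50 cells in a library, were left out. CPM has exact Poisson intervals, ratios exact conditional binomial intervals and shares Clopper-Pearson intervals, all at 95% for counting error; no p-values were computed. The computation was tested on simulated counts with Poisson error only, which hold no variation between libraries, pools or gates. Named genes are the members called in a comparison, the member with most UMIs in each group, and the 3 highest and 3 lowest NMP-like or neural tube-like over somite-like ratios in wild type. A few further members and list genes were chosen after their values were seen. The members and lists were chosen with earlier results of these data known. TMM factors came from edgeR 4.0.16.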

Additional observations from a re-analysis of the deposited data

Results flagged for a closer look

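For 6 Hox genes, a class with a higher call stood against another with a lower one. Their intervals lay on opposite sides of 0, and the difference between the classes was not tested. How many of all genes have such opposite calls was not counted, so the 6 are not set apart from other genes. *hoxb8a* had log2 ratios of 0.92 in intermediate mesoderm-like and -1.49 in differentiating notochord-like cells. *hoxd12a* had 1.27 in erythroid-like and -1.28 in lateral mesoderm-like cells. *hoxb1b* had 0.62 in intermediate mesoderm-like and -0.66 in periderm-like cells. *hoxc10a* had 1.01 in differentiating notochord-like and -0.88 in periderm-like cells. *hoxd10a* had 0.79 and *hoxd3a* 1.21 in erythroid-like cells, against -0.82 and -0.84 in periderm-like cells. All of these classes held 398 or fewer *stag2b-/-* and 397 or fewer wild-type cells.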

How the results depend on the processing

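No paired analysis was possible because there was 1 library per genotype. In all kept cells, the lower calls were 2, but 3 with no minimum beyond 1 UMI in each library and 4 under TMM or centring on the median gene. The higher calls were 0, and 1 with the mean over cells of each cell's UMI share. In NMP-like cells, the higher calls were 1, but 2 at no more than 5% mitochondrial UMIs or with no minimum beyond 1 UMI in each library. They were 0 at 2-fold, with gates at 1 UMI or 4 UMIs, under TMM and when centred. The lower calls were 6, and 2 at 2-fold, 4 with a gate of 1 UMI or 5 times the UMI minimum, and 5 to 7 under the other alternatives. In posterior PSM-like cells, the higher calls were 4, but 10 after thinning to 5000 UMIs and 8 with the mean of cell shares. They were 1 under TMM, 0 when centred or at 2-fold, and 3 to 5 under the other alternatives. The lower calls were 2, but 3 with gates at 1 UMI or 4 UMIs or with no minimum, and 4 under TMM or when centred. In somite-like cells, the lower calls were 6, but 10 under TMM, 11 when centred, and 2 at 2-fold or 5 times the UMI minimum. They were 4 with the mean of cell shares and 5 to 7 under the other alternatives. The higher calls there were 0, but 2 after thinning or with the mean of cell shares and 1 with no minimum. The cause of these shifts was not tested. For *hoxc12b* the log2 ratio stayed between -2.27 and -2.12 in all kept cells and between -2.49 and -1.96 in NMP-like cells, and for *hoxc12a* between -1.38 and -1.18 and between -1.20 and -0.91. Of 144 ratios for 20 gene and class pairs under the alternatives, 0 changed sign. All of these pairs had ratios away from 0, and the alternatives recount the same libraries. A change of sign was therefore unlikely from the start, and this count adds no support of its own. Sizes did move, as for *hoxa4a* in posterior PSM-like cells, whose log2 ratio lay between 0.39 and 0.81. Of 40 members, 32 kept their top class in *stag2b-/-* cells and 35 in wild-type cells with gates at 4 UMIs, and 35 and 29 after thinning. Variation between embryos, pools and libraries is in no interval, and class gates set which cells are compared.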
